A study of Homo sapiens with 10 samples.

Results

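MDM2, MDM4, GDF15, SESN1, TP53I3, FAS, TNFRSF10B, RRM2B and ZMAT3 are genes that the transcription factor p53 switches on or proteins that restrain it. They were taken by symbol from the table of read counts per gene, which lists 23228 genes. All 9 were found, and all 9 were among the 14761 genes with enough counts to be tested. Per the labels, RNA came from RD cells, an established human rhabdomyosarcoma line, from a tumour of soft tissue that resembles immature skeletal muscle. Cells were transfected with NRAS siRNA 1 or NRAS siRNA 2, each at 10 nM, or with a nonspecific siRNA at the same dose, and collected at 48 h. Other cells received SCH772984, an inhibitor of the ERK kinases, at 300 nM or its solvent DMSO, and were collected at 24 h. Each of the 5 groups had 2 libraries, and the design asks which transcripts depend on NRAS and which on ERK activity. All values come from this 1 cell line. The labels do not state that the replicates were separate cultures, so every p-value reflects how far these libraries scatter, and that scatter could be technical.

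Damage and other stresses stabilise p53, which then binds DNA as a tetramer and raises transcription of genes for cell cycle arrest, DNA repair, metabolism and death. MDM2 attaches ubiquitin to p53 and marks it for breakdown, MDM4 covers its activating region, and MDM2 is itself a p53 target, which closes a feedback loop. Several of these genes are also known to answer to other factors, GDF15 and TNFRSF10B among them in the stress response run by ATF4.

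The DNA that p53 reads is a pair of 10-base copies of its consensus, and matches to such pairs are shown here as the sequence background of the genes that hold one near a start. RefSeq start-site windows of 300 bases (250 before the start and 50 after it, build GRCh38.p14) were matched for 7 of the 9 genes, MDM2, MDM4, GDF15, SESN1, TP53I3, FAS and ZMAT3, with 15 windows in all. Windows were searched for 2 adjacent copies of the p53 consensus with at most 3 mismatches in 20 bases. The consensus reads alike on both strands. Capitals mark the 20 bases of each match, mismatches included, and lower case the flanking bases.
MDM2, upstream match: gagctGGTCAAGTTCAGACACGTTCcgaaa
MDM2, downstream match: aaaggAGTTAAGTCCTGACTTGTCTccagc
FAS: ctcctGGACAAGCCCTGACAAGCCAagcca
SESN1: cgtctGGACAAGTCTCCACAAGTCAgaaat
GDF15: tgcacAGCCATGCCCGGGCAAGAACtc

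In MDM2 the matches lay at chr12:68808923-68808942 and chr12:68808961-68808980 on the plus strand, 18 bases apart, with 2 and 3 mismatches. They began 94 and 56 bases before 1 annotated start and fell within an intron of 4 annotated transcripts, the promoter region of MDM2 known to answer to p53. The FAS match at chr10:88991309-88991328, plus strand, had 2 mismatches. It began 122 bases before an internal start and was intronic in 4 transcripts. In SESN1 the match at chr6:109009018-109009037, minus strand, had 3 mismatches, began 49 bases before a start and was intronic in 2 transcripts. The GDF15 match at chr19:18386186-18386205, plus strand, had 3 mismatches and began 28 bases after the start, within an exon. Of the 7 matched genes 4 held a match (57.1%), against 6.06% of 9985 tested genes with 14733 windows matched in the same way. Over all 35116 windows, 5.2% held one. The genes were picked for their known ties to p53, so a higher share could be foreseen and is no test. The number of windows per gene was not matched either. The windows of MDM4, TP53I3 and ZMAT3 held none, which says only that such a pair is not within these bases. A match is a description of sequence, and binding was not measured.

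**Figure D1:**
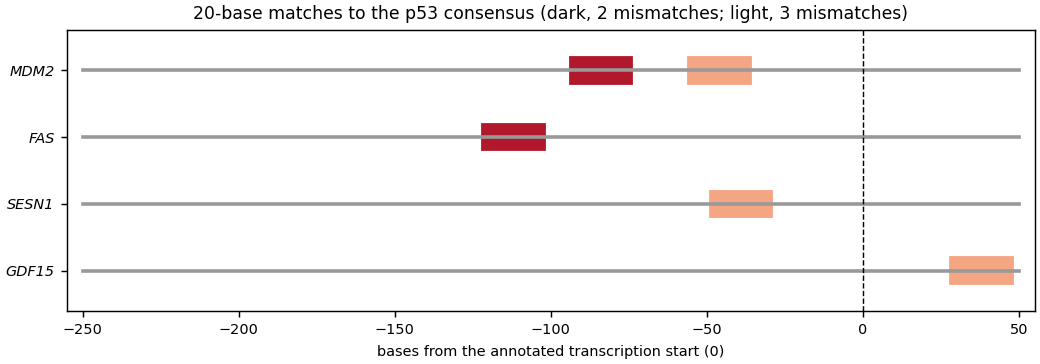
Position of each match to the p53 consensus in bases from an annotated transcription start (dashed line at 0), for MDM2, FAS, SESN1 and GDF15. Grey lines are the 300-base windows, dark boxes matches with 2 mismatches and light boxes matches with 3. The MDM2 pair and the FAS and SESN1 matches lie before the start, and the GDF15 match lies after it.

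Libraries held 23224063 to 30768970 counts on genes, and levels are given as CPM, counts scaled to library size, here by the TMM method. NRAS averaged 52.3 ± 0.166 CPM with NRAS siRNA 1 and 49.5 ± 2.14 CPM with NRAS siRNA 2, against 246 ± 36.8 CPM with the nonspecific siRNA (SD, n = 2 each). Both siRNAs together gave a log2 fold change of -2.27 (SE 0.10, adjusted p = 6.34e-06, quasi-likelihood test of edgeR, Benjamini-Hochberg over all tested genes). DUSP6, which ERK induces, changed by -1.24 with the NRAS siRNAs and by -4.61 with SCH772984 (log2). Among muscle markers, DES, PAX3, MEF2C and MYH3 had at least 77 counts in every library, while MYOD1 had 0 to 5, MYOG 0 to 3, PAX7 1 to 6 and MYF5 0. The muscle markers were thus split, and the near absence of MYOD1 and MYOG is unlike a line of skeletal muscle character. The identity of the cells rests on the labels alone, and the cause of the low counts was not tested. Of 10 markers of leukocytes, endothelium and epithelium, CD14 at 33 to 69 counts and EPCAM at 39 to 77 were the only ones above 15 counts in any library.

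SCH772984 raised TP53I3 and lowered TNFRSF10B and MDM2, while the other 6 genes did not pass the test. That is 3 of 9 genes (33.3%), beside 28.0% of all genes tested in this comparison, so the share called was near the background. For rises alone it was 1 of 9 beside 13.2% of all genes, and for falls 2 of 9 beside 14.8%. The median log2 fold change of the 9 was 0.05, beside 0.00 over all genes. With the NRAS siRNAs averaged, only TNFRSF10B passed, a fall in 1 of 9 genes (11.1%), beside 7.95% of all genes called either way, 2.97% called higher and 4.99% called lower. Under ERK inhibition the 3 called genes went in different directions. After NRAS knockdown none of the 9 passed as higher, beside the 2.97% of all genes. These counts describe single genes and show no shift of the 9 as a set.

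**Figure D2:**
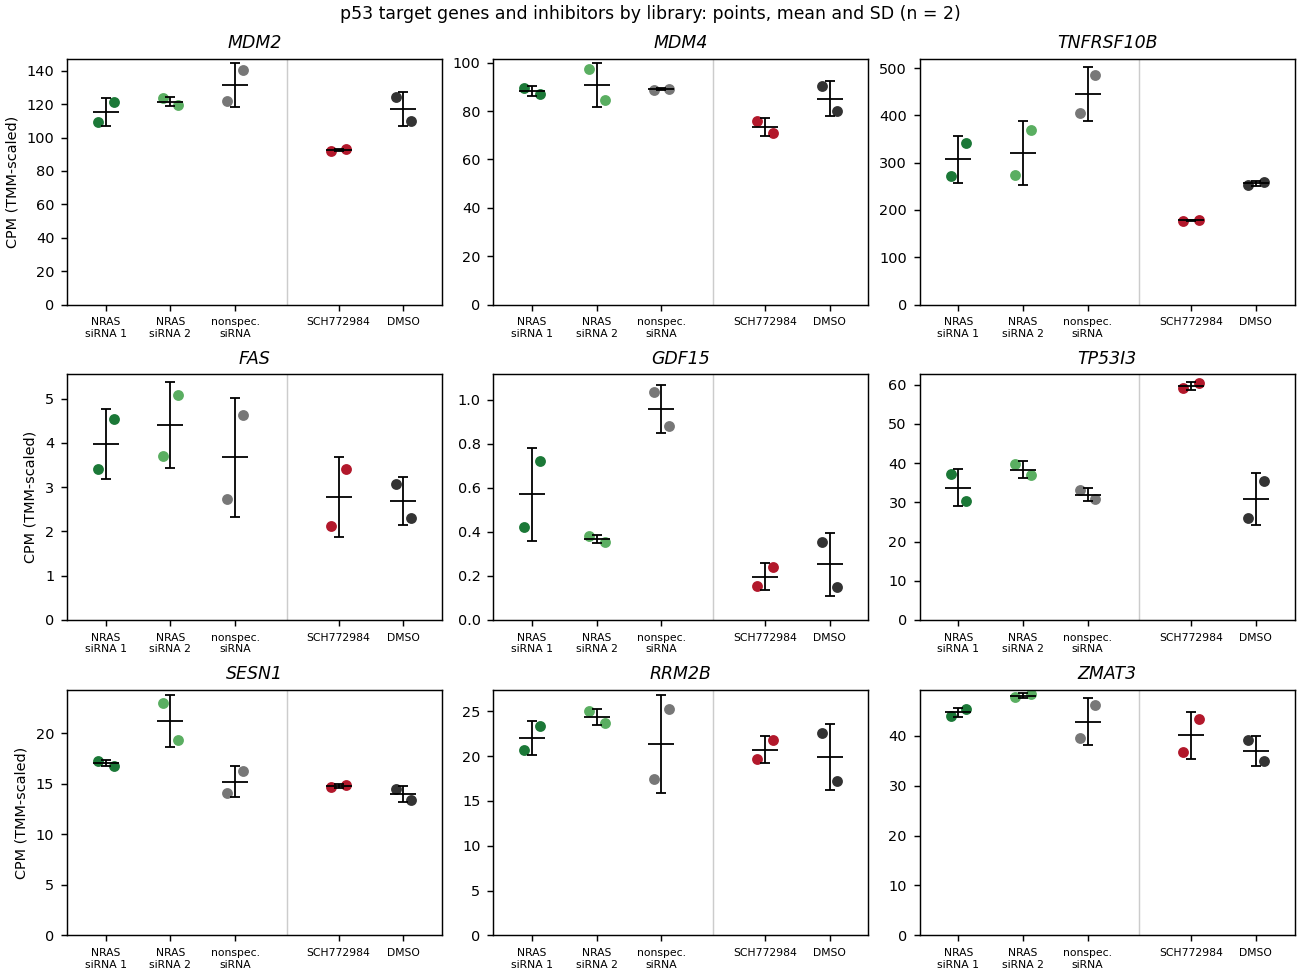
Level of each of the 9 genes in every library, in CPM scaled by TMM on linear axes starting at 0. Points are libraries, horizontal lines group means and bars the SD (n = 2). The SCH772984 points are high for TP53I3 and low for MDM2, MDM4 and TNFRSF10B, and the nonspecific siRNA points are the highest for TNFRSF10B and GDF15.

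TP53I3 encodes a quinone oxidoreductase linked to oxidative stress in p53-driven death. Its level was 59.1 and 60.5 CPM with SCH772984, against 26.1 and 35.5 CPM with DMSO. Both inhibitor libraries stood above every other library in the study. The difference was 0.95 on the log2 scale, a 1.94-fold increase (SE 0.15, 95% interval 0.62 to 1.29, adjusted p = 0.0015, quasi-likelihood test of edgeR, Benjamini-Hochberg). In bulk RNA a change in the share of cells with a transcript and a change in its level per cell cannot be told apart. This holds here and in all results that follow. With the siRNAs TP53I3 was at 37.1 and 30.4 CPM for NRAS siRNA 1 and 39.9 and 36.9 CPM for NRAS siRNA 2, against 33.1 and 30.7 CPM for the nonspecific siRNA. NRAS siRNA 1 overlapped its control and NRAS siRNA 2 lay above it. The averaged difference was 0.17 (SE 0.13, 95% interval -0.12 to 0.46, edgeR adjusted p = 0.436). The response to knockdown minus the response to the inhibitor was -0.78 (SE 0.20, edgeR adjusted p = 0.0418), the only one of the 9 differences between responses to pass, beside 7.30% of all genes. The rise with SCH772984 passed in each of the 10 fits without 1 library, at 0.75 to 1.22, and under the other 6 settings. The difference between responses lost its call in 8 of those 10 fits, with its highest adjusted p of 0.136 without SCH772984 replicate 1.

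The genes include 2 death receptors. TNFRSF10B encodes a receptor for the death ligand TRAIL, and FAS encodes the receptor for FAS ligand. TNFRSF10B was at 176 and 179 CPM with SCH772984, against 253 and 259.9 CPM with DMSO. The pairs did not overlap, and the inhibitor libraries were the lowest of all 10. Its log2 fold change was -0.53 (SE 0.15, 95% interval -0.87 to -0.19, edgeR adjusted p = 0.0282), which left 69.3% of the DMSO level. With the siRNAs TNFRSF10B was at 272 and 342 CPM for NRAS siRNA 1 and 273 and 369 CPM for NRAS siRNA 2, against 405 and 486 CPM for the nonspecific siRNA. All 4 knockdown libraries lay below both controls. The averaged log2 fold change was -0.50 (SE 0.13, 95% interval -0.79 to -0.22, edgeR adjusted p = 0.0440), or 70.5% of the control level. Both calls were close to the threshold. The inhibitor call was lost without DMSO replicate 1 (edgeR adjusted p = 0.0703), without DMSO replicate 2 (0.140), without SCH772984 replicate 1 (0.137) and without SCH772984 replicate 2 (0.0955). The knockdown call was kept without replicate 2 of either NRAS siRNA and lost without any 1 of the other 8 libraries, at adjusted p from 0.0599 without DMSO replicate 1 to 0.197 without nonspecific siRNA replicate 2, and it was lost when the compared groups were fitted alone (0.109). The change with knockdown and the change with the inhibitor differed by 0.02 (SE 0.20, 95% interval -0.42 to 0.47).

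FAS was low throughout. It was at 2.13 and 3.41 CPM with SCH772984, against 3.08 and 2.31 CPM with DMSO, with overlapping pairs and a log2 difference of 0.05 (SE 0.34, 95% interval -0.70 to 0.80). With NRAS siRNA 1 it was at 3.41 and 4.54 CPM and with NRAS siRNA 2 at 3.71 and 5.09 CPM, against 2.73 and 4.63 CPM with the nonspecific siRNA. These pairs overlapped too, and the averaged difference was 0.18 (SE 0.28, 95% interval -0.44 to 0.79). The interval for the inhibitor would hold a change of more than 1.5-fold in either direction.

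MDM2 and MDM4 are the inhibitors of p53. MDM2 was at 91.9 and 93.0 CPM with SCH772984, against 124 and 110.0 CPM with DMSO. Those 2 inhibitor libraries were the lowest of all 10. The fall of 0.34 on the log2 scale (SE 0.10, 95% interval -0.57 to -0.11, edgeR adjusted p = 0.0336) left 78.9% of the DMSO level. The call was lost without DMSO replicate 1 (adjusted p = 0.161), without DMSO replicate 2 (0.0589), without SCH772984 replicate 1 (0.154) and without SCH772984 replicate 2 (0.105), all by edgeR, and with upper-quartile scaling (0.0529). With the siRNAs MDM2 was at 109 and 121 CPM for NRAS siRNA 1 and 123 and 119.7 CPM for NRAS siRNA 2, against 122 and 140.5 CPM for the nonspecific siRNA. The NRAS siRNA 2 pair overlapped the control and the NRAS siRNA 1 pair lay just below it. The averaged difference of -0.15 (SE 0.09, 95% interval -0.35 to 0.05, edgeR adjusted p = 0.313) did not pass.

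MDM4 was at 76.1 and 70.8 CPM with SCH772984, against 90.3 and 80.1 CPM with DMSO. The inhibitor pair was again the lowest of all 10 libraries, but the difference of -0.21 (SE 0.10, 95% interval -0.44 to 0.02, edgeR adjusted p = 0.148) did not pass. With NRAS siRNA 1 it was at 89.7 and 86.9 CPM and with NRAS siRNA 2 at 97.3 and 84.4 CPM, against 88.7 and 89.3 CPM with the nonspecific siRNA. Both knockdown pairs straddled the control, and the averaged difference of 0.01 (SE 0.09) had a 95% interval of -0.19 to 0.21.

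GDF15 encodes a secreted cytokine of the TGF-beta family that rises in stressed cells. It was barely counted here, with 4 and 7 reads with SCH772984 and 8 and 4 with DMSO, beside a detection floor of 3 counts (0.0951 to 0.132 CPM over the libraries). It met the filter on low counts through the transfected libraries. The inhibitor and DMSO pairs overlapped, and the log2 difference of -0.31 (SE 0.59) had a 95% interval of -1.62 to 1.00. With the siRNAs it had 12 and 20 reads for NRAS siRNA 1 and 12 and 10 for NRAS siRNA 2, against 25 and 23 for the nonspecific siRNA. In CPM this was 0.422 and 0.721 for NRAS siRNA 1 and 0.381 and 0.356 for NRAS siRNA 2, against 1.03 and 0.880 for the nonspecific siRNA. All 4 knockdown libraries were below both controls. The averaged log2 difference of -1.05 (SE 0.34, 95% interval -1.80 to -0.31) had edgeR adjusted p = 0.0801 and did not pass.

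SESN1 encodes sestrin 1, which restrains the growth kinase mTORC1 and helps to clear peroxides. It was at 14.6 and 14.9 CPM with SCH772984, against 14.5 and 13.4 CPM with DMSO, just above both controls with a log2 difference of 0.08 (SE 0.14, 95% interval -0.22 to 0.38). With NRAS siRNA 1 it was at 17.2 and 16.8 CPM and with NRAS siRNA 2 at 23.0 and 19.4 CPM, against 14.1 and 16.3 CPM with the nonspecific siRNA. All 4 knockdown libraries were above both controls, and those of NRAS siRNA 2 were the highest of all 10. The averaged difference was 0.32 (SE 0.12, 95% interval 0.06 to 0.58, edgeR adjusted p = 0.117). For NRAS siRNA 2 alone it was 0.48 (SE 0.13, edgeR adjusted p = 0.0595), and for NRAS siRNA 1 alone 0.16 (SE 0.13, edgeR adjusted p = 0.574), so neither passed. The difference of NRAS siRNA 1 minus NRAS siRNA 2 was -0.32 (SE 0.13, edgeR adjusted p = 0.794).

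RRM2B, the p53-induced subunit of ribonucleotide reductase that supplies nucleotides for DNA repair, was at 19.6 and 21.8 CPM with SCH772984, against 22.5 and 17.3 CPM with DMSO. The DMSO pair enclosed the inhibitor pair. With NRAS siRNA 1 it was at 20.6 and 23.4 CPM and with NRAS siRNA 2 at 24.99 and 23.7 CPM, against 17.5 and 25.2 CPM with the nonspecific siRNA, whose spread enclosed them all. The log2 difference was 0.06 (SE 0.19, 95% interval -0.35 to 0.48) with the inhibitor and 0.12 (SE 0.16, 95% interval -0.24 to 0.48) with the siRNAs averaged.

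ZMAT3, an RNA-binding zinc finger protein that acts on splicing downstream of p53, was at 36.8 and 43.4 CPM with SCH772984, against 39.1 and 34.9 CPM with DMSO. The pairs overlapped. With NRAS siRNA 1 it was at 44.0 and 45.3 CPM and with NRAS siRNA 2 at 47.7 and 48.4 CPM, against 39.5 and 46.2 CPM with the nonspecific siRNA, and here the NRAS siRNA 2 pair lay above the control. The log2 difference was 0.12 (SE 0.12, 95% interval -0.15 to 0.38) with the inhibitor and 0.11 (SE 0.10, 95% interval -0.12 to 0.34) with the siRNAs averaged, and neither passed.

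**Figure D3:**
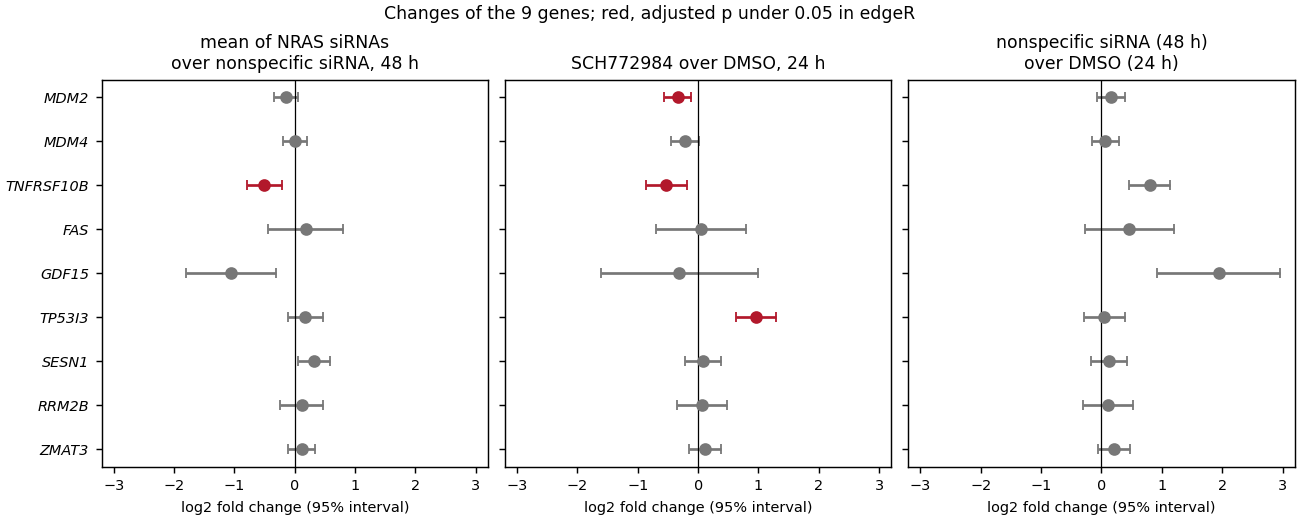
Log2 fold change of each of the 9 genes with its 95% interval in 3 comparisons, for the mean of the NRAS siRNAs over the nonspecific siRNA, SCH772984 over DMSO, and the nonspecific siRNA over DMSO. Red marks an edgeR adjusted p under 0.05. TNFRSF10B is red at -0.50 and -0.53 in the first and second panels, TP53I3 at 0.95 and MDM2 at -0.34 in the second, and no gene in the last.

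Taken singly, neither siRNA moved any of the 9 genes past the threshold. For NRAS siRNA 1 against the nonspecific siRNA 0 of 9 passed in edgeR, beside 2.07% of all genes, with 1 at an unadjusted p under 0.05 and 1 in DESeq2. For NRAS siRNA 2 it was 0 of 9 in edgeR, beside 6.43% of all genes, with 3 at an unadjusted p under 0.05 and 2 in DESeq2. Both comparisons share their control libraries. TNFRSF10B was at -0.54 (SE 0.15, edgeR adjusted p = 0.105) for NRAS siRNA 1 and at -0.47 (SE 0.15, edgeR adjusted p = 0.0876) for NRAS siRNA 2. GDF15 was at -0.74 (SE 0.38) for NRAS siRNA 1 and at -1.36 (SE 0.41, edgeR adjusted p = 0.0712) for NRAS siRNA 2. Set against each other, the siRNAs differed in 0 of 9 genes in edgeR, beside 0.427% of all genes, with SESN1 the 1 gene at an unadjusted p under 0.05 and 0 genes in DESeq2.

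The 2 control groups differ in transfection, in the agent and in time, which cannot be told apart. TNFRSF10B was at 405 and 486 CPM with the nonspecific siRNA, against 253 and 259.9 CPM with DMSO, a difference of 0.80 on the log2 scale (SE 0.15, 95% interval 0.46 to 1.14, edgeR adjusted p = 0.0637). GDF15 had 25 and 23 reads with the nonspecific siRNA, against 8 and 4 with DMSO, a log2 difference of 1.94 (SE 0.46, 95% interval 0.93 to 2.95, edgeR adjusted p = 0.113). In both genes the pairs did not overlap, but neither difference passed, and GDF15 was under the count minimum in the DMSO libraries. In all, 0 of 9 genes passed in edgeR, beside 0.379% of all genes, with 2 at an unadjusted p under 0.05 and 1, TNFRSF10B, in DESeq2. TNFRSF10B thus stood highest with the nonspecific siRNA, then with NRAS siRNA 2 and NRAS siRNA 1, whose libraries overlapped each other, then with DMSO, and lowest with SCH772984. GDF15 stood highest with the nonspecific siRNA, then with NRAS siRNA 1, NRAS siRNA 2, DMSO and SCH772984, with DMSO and SCH772984 overlapping. The lowest NRAS siRNA 2 library, at 0.356 CPM, barely cleared the highest DMSO library, at 0.352 CPM. With so few reads that step is not a clear separation.

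The order of the other genes was less spread. For TP53I3 the order was SCH772984, NRAS siRNA 2, NRAS siRNA 1, nonspecific siRNA and DMSO, and each neighbour after SCH772984 overlapped the next. For MDM2 it was nonspecific siRNA, NRAS siRNA 2, DMSO, NRAS siRNA 1 and SCH772984, and for MDM4 NRAS siRNA 2, nonspecific siRNA, NRAS siRNA 1, DMSO and SCH772984, and in both genes only the last step had no overlap. SESN1 ran from NRAS siRNA 2 through NRAS siRNA 1, nonspecific siRNA and SCH772984 to DMSO, with overlap only between the nonspecific siRNA and SCH772984. FAS, RRM2B and ZMAT3 shared the order NRAS siRNA 2, NRAS siRNA 1, nonspecific siRNA, SCH772984 and DMSO. Neighbours overlapped at each step in FAS, and at each step after NRAS siRNA 2 in RRM2B and ZMAT3.

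Profiles were compared over the 10 libraries by the root mean square difference of centred log2 levels, among 11233 genes of at least 5 CPM on average, for the 5 genes whose group means spanned at least 0.5. The nearest to TP53I3 were GBGT1 (difference 0.0914), DNAJB2 (0.114) and S1PR5 (0.122). The nearest to TNFRSF10B were CA13 (0.0942), ALDH1A3 (0.0946) and AMPD3 (0.101), and those nearest to SESN1 were ZNF252 (0.0594), ATG2B (0.0603) and SPAST (0.0633). GDF15 had LONRF1 (0.142), ARID3B (0.191) and XYLT2 (0.193) nearest, and FAS had DDX58 (0.139) and CLIP1 (0.143). None of these neighbours was among the 9 genes. The points share library and depth, and the likeness is a description. The group means of GDF15 were at most 0.957 CPM, so the 0.5 CPM added before taking logs flattened its profile.

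A wider list of 43 further p53 target genes had 40 tested members, since EDA2R, SPATA18 and TNFRSF10D had too few counts. With SCH772984 16 of 40 passed (40%, beside 28.0% of all genes), 5 higher and 11 lower, and their median over all 40 was -0.04, beside 0.00 over all genes. With the NRAS siRNAs averaged 8 of 40 passed (20%, beside 7.95% of all genes), 3 higher and 5 lower, with a median of -0.12, beside -0.01 over all genes. Calls thus lay in both directions in each comparison. The list was chosen with earlier results of these data known, so its shares beside those of all genes are descriptions and not a test. The inhibitor count was 7 without DMSO replicate 2, 8 without SCH772984 replicate 1 and 10 without SCH772984 replicate 2. The knockdown count was 1 without NRAS siRNA 2 replicate 1 or without nonspecific siRNA replicate 1, 2 without NRAS siRNA 1 replicate 1 or without nonspecific siRNA replicate 2, 5 without either SCH772984 library and 13 without NRAS siRNA 2 replicate 2.

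**Figure D4:**
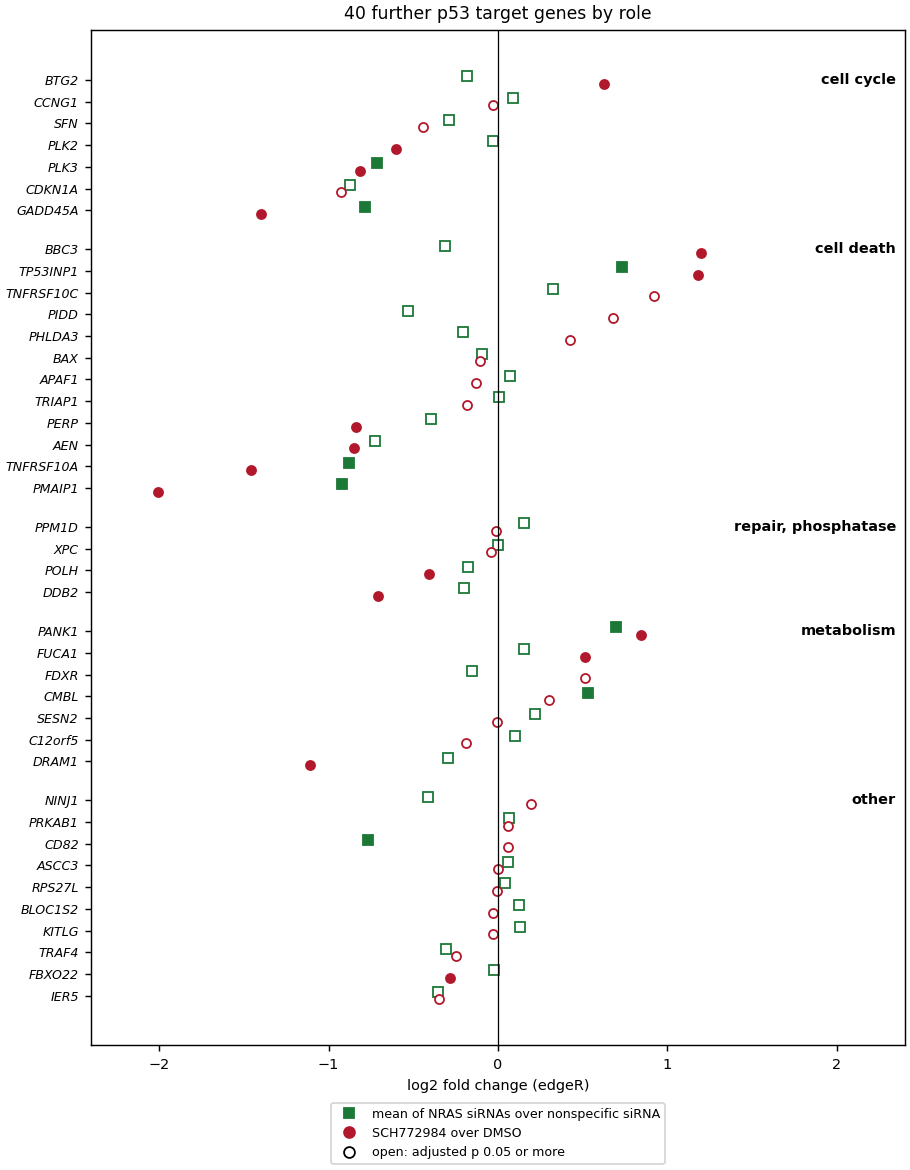
Log2 fold change in edgeR of the 40 further p53 target genes, grouped by role, for the mean of the NRAS siRNAs over the nonspecific siRNA (green squares) and SCH772984 over DMSO (red circles). Open symbols have an adjusted p of 0.05 or more. Filled symbols lie on both sides of 0, from PMAIP1 at -2.01 to BBC3 at 1.20 for the inhibitor.

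Among 12 cell death genes, 4 fell and 2 rose with SCH772984, beside 14.8% of all genes called lower and 13.2% called higher. With knockdown 2 fell and 1 rose, beside 4.99% of all genes called lower and 2.97% called higher. PMAIP1, which encodes the death protein NOXA, was at 29.7 and 31.1 CPM with SCH772984, against 139 and 106 CPM with DMSO. It was at 66.6 and 92.6 CPM with NRAS siRNA 1 and 72.3 and 103 CPM with NRAS siRNA 2, against 147 and 169 CPM with the nonspecific siRNA. No pair overlapped its control, and the inhibitor libraries were the lowest. The log2 fold change was -2.01 (SE 0.21, edgeR adjusted p = 0.000139) with the inhibitor and -0.92 (SE 0.17, edgeR adjusted p = 0.0132) with knockdown. TNFRSF10A, the sister TRAIL receptor of TNFRSF10B, was at 4.87 and 4.94 CPM with SCH772984, against 13.0 and 13.96 CPM with DMSO. It was at 10.2 and 13.6 CPM with NRAS siRNA 1 and 8.21 and 11.99 CPM with NRAS siRNA 2, against 17.3 and 23.1 CPM with the nonspecific siRNA. It fell in both comparisons without overlap, by 1.46 (SE 0.23, edgeR adjusted p = 0.00141) with the inhibitor and by 0.88 (SE 0.18, edgeR adjusted p = 0.0201) with knockdown.

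BBC3, which encodes the death protein PUMA, went the other way with the inhibitor, at 7.61 and 4.91 CPM with SCH772984, against 2.95 and 2.50 CPM with DMSO. It was at 4.19 and 3.82 CPM with NRAS siRNA 1 and 3.42 and 4.70 CPM with NRAS siRNA 2, against 5.01 and 5.01 CPM with the nonspecific siRNA. Both inhibitor libraries were above DMSO, and all 4 knockdown libraries were below their control. Its rise of 1.20 (SE 0.25, edgeR adjusted p = 0.00615) was lost without DMSO replicate 2 (0.0583) or without SCH772984 replicate 1 (0.0579), and knockdown gave -0.31 (SE 0.21, edgeR adjusted p = 0.363). TP53INP1, a stress protein that favours autophagy and p53 activity, rose by 1.18 (SE 0.23) with the inhibitor and by 0.73 (SE 0.20) with knockdown, with edgeR adjusted p = 0.00399 and 0.0493. PERP, a membrane protein of death and cell adhesion, fell by 0.84 (SE 0.13, edgeR adjusted p = 0.00131) with the inhibitor.

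Among 7 cell cycle genes, 3 fell and 1 rose with SCH772984 (14.8% and 13.2% of all genes), and 2 fell with knockdown (4.99% of all genes). GADD45A, a growth arrest protein, was at 16.8 and 18.0 CPM with SCH772984, against 43.3 and 48.7 CPM with DMSO. It was at 23.0 and 37.4 CPM with NRAS siRNA 1 and 22.5 and 33.0 CPM with NRAS siRNA 2, against 46.3 and 53.4 CPM with the nonspecific siRNA. Without overlap it fell by 1.40 (SE 0.23, edgeR adjusted p = 0.00191) with the inhibitor and by 0.78 (SE 0.19, edgeR adjusted p = 0.0359) with knockdown. PLK2, a polo-like kinase, fell by 0.60 (SE 0.09, edgeR adjusted p = 0.000897) with the inhibitor and was at -0.03 (SE 0.07) with knockdown. Its relative PLK3 fell by 0.72 (SE 0.15, edgeR adjusted p = 0.0249) with knockdown. CDKN1A, the p21 inhibitor of cyclin-dependent kinases, lay outside the rule for naming genes and was chosen after its values were seen. It was at 11.3 and 11.9 CPM with SCH772984, against 19.9 and 24.3 CPM with DMSO, and at -0.93 (SE 0.37, edgeR adjusted p = 0.0875) did not pass. CDKN1A was at 12.5 and 24.6 CPM with NRAS siRNA 1 and 12.1 and 21.6 CPM with NRAS siRNA 2. The nonspecific siRNA gave 23.1 and 41.6 CPM. The NRAS siRNA 1 pair overlapped this control, the NRAS siRNA 2 pair lay below it, and the averaged change did not pass.

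Metabolic targets held 2 rises and 1 fall of 7 with SCH772984, beside 28.0% of all genes called, and 2 rises with knockdown, beside 7.95%. PANK1, a kinase of coenzyme A synthesis, was at 11.8 and 13.1 CPM with SCH772984, against 6.64 and 7.21 CPM with DMSO. It was at 10.8 and 12.1 CPM with NRAS siRNA 1 and 10.5 and 10.6 CPM with NRAS siRNA 2, against 5.999 and 7.54 CPM with the nonspecific siRNA. The treated libraries lay above the controls in both comparisons, at 0.84 (SE 0.16, edgeR adjusted p = 0.00342) and 0.70 (SE 0.14, edgeR adjusted p = 0.0182). CMBL, a hydrolase, rose by 0.53 (SE 0.13, edgeR adjusted p = 0.0361) with knockdown. Repair and phosphatase genes held 2 falls of 4 with the inhibitor, and of 10 genes with other roles 1 fell, beside the same 28.0% of all genes, so in these small groups the counts are descriptions only. With knockdown CD82, a membrane tetraspanin among these 10, fell by 0.77 (SE 0.17, edgeR adjusted p = 0.0279), the only call in both roles.

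**Figure D5:**
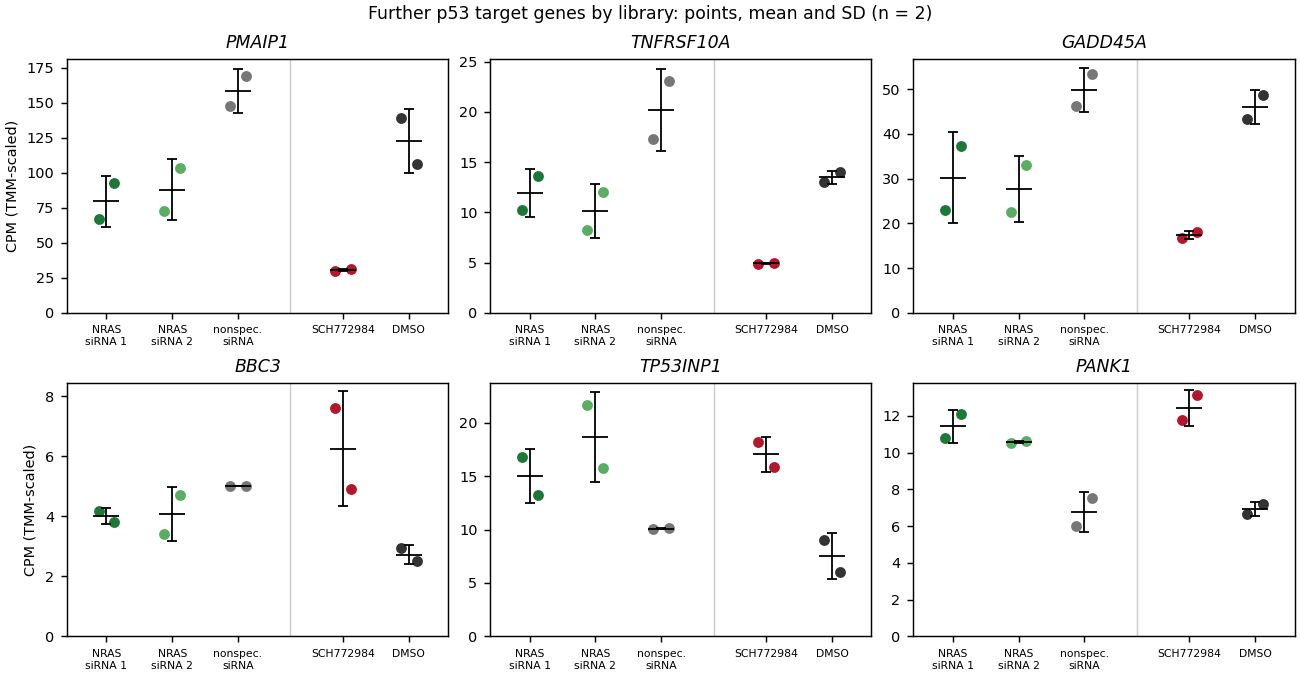
Level of 6 further p53 target genes in every library, in CPM scaled by TMM on linear axes starting at 0, with points for libraries and lines for group means and SD (n = 2). PMAIP1, TNFRSF10A and GADD45A are lowest with SCH772984 and lower with both NRAS siRNAs than with the nonspecific siRNA. PANK1 and TP53INP1 are higher with NRAS knockdown and with SCH772984 than in their controls, and BBC3 is higher with SCH772984 but not with NRAS knockdown.

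Calls shared in direction by both comparisons numbered 6 among the 40, GADD45A, PLK3, PMAIP1, TNFRSF10A, TP53INP1 and PANK1, which is 75% of the knockdown calls and 37.5% of the inhibitor calls. Over all genes the shares were 56.0% and 15.9%. The inhibitor calls of PMAIP1, PLK2, PERP, TNFRSF10A, GADD45A, PANK1 and TP53INP1 passed in every fit without 1 library, 7 of the 16, against 0 of the 8 knockdown calls. The knockdown fall of PMAIP1 was lost without nonspecific siRNA replicate 1 or replicate 2. The knockdown rise of PANK1 was lost without NRAS siRNA 2 replicate 1 or nonspecific siRNA replicate 1. PMAIP1 and PANK1 held the steadiest of the knockdown calls. Those of TNFRSF10A, PLK3, CD82, GADD45A, CMBL and TP53INP1 were each lost in more of these fits, GADD45A and CMBL most often. In these fits the knockdown value ran from -0.98 to -0.63 for GADD45A and from 0.40 to 0.69 for CMBL. For TP53INP1 it ran from 0.61 to 0.84.

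Of 20 genes that act on p53, 6 passed with SCH772984 (30%, beside 28.0% of all genes) and 2 with knockdown (10%, beside 7.95%). USP7, the enzyme that removes ubiquitin from MDM2 and p53, was at 160 and 167 CPM with SCH772984, against 217 and 244 CPM with DMSO, a fall of 0.49 (SE 0.09, edgeR adjusted p = 0.00379) that passed in every fit without 1 library. The checkpoint kinases CHEK1 and CHEK2 fell by 0.58 and 0.62, RPL5, a ribosomal protein that binds MDM2, by 0.31, and DAXX, a partner of MDM2, by 0.37, while the acetyltransferase CREBBP rose by 0.35. These 5 calls were each lost in 2 or 3 of the 10 fits without 1 library. With knockdown CDKN2A, whose ARF product restrains MDM2, fell by 0.38 and the damage response protein TP53BP1 rose by 0.30, with edgeR adjusted p = 0.0442 and 0.0488. Of the 10 fits without 1 library, the CDKN2A call was kept in 3 and the TP53BP1 call in 1.

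Of 12 genes of the ATF4 stress response, 3 passed with SCH772984 (25%, beside 28.0% of all genes) and 1 with knockdown (8.33%, beside 7.95%), both shares near those over all genes. ASNS and PSAT1, enzymes of asparagine and serine synthesis, fell by 0.76 (SE 0.10) and 0.48 (SE 0.09) with the inhibitor, and DDIT4, an inhibitor of mTORC1, rose by 1.08 (SE 0.22), with edgeR adjusted p = 0.000591, 0.00323 and 0.00574. HERPUD1, a protein of endoplasmic reticulum quality control, rose by 0.54 (SE 0.14, edgeR adjusted p = 0.0459) with knockdown, a call kept in 1 of the 10 fits without 1 library. The part of these genes in the values of GDF15 and TNFRSF10B was not tested.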

How the data were processed

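The authors deposited raw counts, whole numbers of reads for each gene, from stranded mRNA libraries, per the labels. The submitters' processing notes list TopHat2, HTSeq, SAMtools and bcl2fastq, and hg19 and GRCh37 as builds. How strand was handled in counting, which annotation and which versions were used is not given in the sources, so antisense and overlapping genes may share reads. The 10 count files matched the 10 columns of the series table. Category lines without a gene were dropped. They held 38.3 to 39.4% of reads, mostly reads without a unique alignment, which lowers genes with close copies.

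Testing used the quasi-likelihood functions glmQLFit and glmQLFTest of edgeR 4.0.16 (R 4.3.3) after TMM scaling and filterByExpr (minimum count 10). A single fit held all 10 libraries without covariates, with 5 residual degrees of freedom. Adjustment was by Benjamini-Hochberg over 14761 genes, with a threshold of 0.05. The script was tested on simulated counts. CPM are counts over TMM-scaled totals. A chi-square comparison of replicates gave 13.2 to 25.5 times its degrees of freedom, so each library was counted as 1 sample. The floor of 3 counts covers counting error only. Alternatives were DESeq2 1.42.0, upper-quartile and relative log expression scaling, no filter, the compared groups alone, the replicate block and leaving out each library.

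Named genes were the 9 genes, NRAS and treatment checks, up to 8 called genes per list and comparison (4 for ATF4 genes), and the 3 nearest profiles (pseudocount 0.5 CPM). Some are not reported here. The genes and lists were chosen with earlier results of these data known. Counts rest on hg19, whereas sequences and positions come from RefSeq and GRCh38.p14.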

Additional observations from a re-analysis of the deposited data

Results flagged for a closer look

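Of the listed genes tested, 1 of the 9, 3 of 40 further p53 targets (7.5%), 1 of 12 ATF4 genes and 0 of 20 genes that act on p53 (edgeR, with 4 at an unadjusted p under 0.05 and 0 in DESeq2) passed a test of the difference between responses, beside 7.30% of all genes, so the counts were near the background. In these 5 genes the response to NRAS knockdown and the response to SCH772984 differed by a test of the difference itself, edgeR's quasi-likelihood test of the knockdown log2 fold change minus the inhibitor log2 fold change with Benjamini-Hochberg adjustment over all genes tested. TP53I3 differed by -0.78 (SE 0.20, edgeR adjusted p = 0.0418), with a knockdown value of 0.17 and an inhibitor value of 0.95. BBC3 differed by -1.51 (SE 0.32, edgeR adjusted p = 0.0244), with a knockdown value of -0.31 and an inhibitor value of 1.20. In PLK2 the difference was 0.57 (SE 0.11, edgeR adjusted p = 0.0192), with a knockdown value of -0.03 and an inhibitor value of -0.60. In PMAIP1 it was 1.09 (SE 0.27, edgeR adjusted p = 0.0386), where both responses were falls, of 0.92 with knockdown and 2.01 with the inhibitor. The difference for ASNS was 0.79 (SE 0.13, edgeR adjusted p = 0.00956), with a knockdown value of 0.03 and an inhibitor value of -0.76.

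Each of these differences was lost in at least 1 of the 10 fits without 1 library, TP53I3 in 8, PMAIP1 in 7 and BBC3 in 5. For ASNS that was the fit without SCH772984 replicate 1 (edgeR adjusted p = 0.0512), and for PLK2 those without DMSO replicate 1 (0.0633), SCH772984 replicate 1 (0.0816) or SCH772984 replicate 2 (0.0507). The siRNA and inhibitor arms also differ in time and in transfection, which cannot be told apart from the target.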

How the results depend on the processing

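Of the 9 genes, 1 to 3 passed with SCH772984 when 1 library was left out (3 with all), 0 to 1 for the averaged siRNAs (1 with all), 0 to 1 for the difference between responses (1 with all), 0 to 2 for NRAS siRNA 2 and 0 in each fit for NRAS siRNA 1, the siRNAs against each other and the nonspecific siRNA against DMSO. Fits of the compared groups alone gave 0 for the averaged siRNAs. NRAS siRNA 1 gave 1 with DESeq2, without the filter and with the replicate block. NRAS siRNA 2 gave 2 with DESeq2 and without the filter, and 3 with the replicate block. The nonspecific siRNA against DMSO gave 1 with DESeq2, upper-quartile scaling, no filter and the replicate block. Among further p53 targets the counts were 7 to 16 with SCH772984 and 1 to 13 for the averaged siRNAs without 1 library. For the averaged siRNAs the compared groups alone gave 2 and the replicate block 14. The labels do not state that replicate numbers pair libraries. Deviations of libraries with the same number correlated at 0.0737 to 0.448 over 14761 genes, above 0 for every pair of groups. With the replicate block, calls over all genes went from 1174 to 2846 for the averaged siRNAs and from 4128 to 5648 for SCH772984. With 2 replicate numbers this is a hint of pairing only. The main fit and the statements on overlap leave any such pairing out. No called value changed sign, while 54 of 903 uncalled values did. Upper-quartile scaling turned the inhibitor calls over all genes to 2210 higher and 1725 lower, against 1948 and 2180 with TMM. The cause of these changes was not tested. With 2 libraries a group moderate changes could be missed, above all in GDF15, which had few counts, and FAS, whose replicates scattered widely.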
